A study of Mus musculus with 6 samples.

Results

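Cytosolic ribosomal protein genes were examined in mouse embryonic stem cells (ESCs) that carry either wild-type Ube2d3 or the Ube2d3-S138A mutation. They were chosen by symbol, as the Rpl and Rps genes together with Rplp0, Rplp1, Rplp2, Rpsa and Rps3a1, leaving out Rps27a, which encodes a fusion with ubiquitin, and rows named as pseudogenes or as like genes. This gave 75 of the 37620 rows of the count table, of which 45 encode proteins of the large subunit and 30 encode proteins of the small subunit. Rpl24 was not analysed here.

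The series holds polyA RNA-seq of 6 libraries of E14 ESCs, a 129/Ola line grown in medium with 15% FBS, 3 wild-type (WT 1 to 3) and 3 Ube2d3-S138A (S138A A to C). Ube2d3 encodes a ubiquitin-conjugating enzyme, and in the mutant cells a serine near its C-terminal end is replaced by alanine through CRISPR/Cas9 editing. The study's methods describe its functional work with 1 mutant clone, so clone and genotype cannot be told apart, and the labels do not say that the 3 libraries of a genotype come from separate cultures, so the p-values measure the spread between these libraries only.

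A ribosome contains 1 copy of most of its proteins, and cells keep the supply of large and small subunit proteins close to each other. Most of these mRNAs begin with a C followed by a run of pyrimidines, the terminal oligopyrimidine (TOP) motif, through which mTORC1 and LARP1 control their translation. Ribosomal protein mRNAs are abundant in ESCs, and their many processed pseudogenes complicate the assignment of short reads.

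Libraries held 33227593 to 37169770 counts. In a principal component analysis of all genes, the first component (57.2% of the variance) set WT 3 and S138A C against the remaining 4 libraries, and the second (25.6%) separated the genotypes. All 12 ESC markers checked, among them Pou5f1, Sox2 and Nanog, were over 1 CPM (counts per 1000000 counts of a library, here with scaling factors) in all 6 libraries. Of 12 fibroblast and feeder markers, 7 were over 1 CPM in all 6 libraries, Fap was at 0 in every library and Lum and Dcn were under 0.2 CPM. The markers' summed level was 86.7 to 131 CPM in WT and 132 to 177 CPM in S138A libraries. The summed level of 11 markers of differentiated lineages was 263 to 367 CPM in WT and 238 to 466 CPM in S138A libraries. Their part in the results below was not tested. Ube2d3 itself was at 412 ± 93.6 CPM in WT and 395 ± 117 CPM in S138A ESCs (SD, n = 3), and gene counts cannot show the point mutation.

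The annotated transcription start sites show how far the TOP motif can be read from the reference for these genes. Start-site sequence from RefSeq (GRCm38.p6) matched 56 of the 75 members by symbol. A C followed by at least 4 further pyrimidines, with the C within 5 bases of the annotated start and on the transcribed strand only, was found in 27 of these 56 members (48.2%) and in 21.2% of the 27025 genes in the same table. It was found in 16 of 33 large subunit genes and in 11 of 23 small subunit genes, so both subunits held it at like shares. The windows below are shown for the genes with the highest level per kilobase in WT ESCs (Rpl4, Rps12, Rpl41, Rpl13a) and for Rpl23 and Rpl26, which are among the 3 members of lowest p-value between genotypes. Each window holds 15 bases before the annotated start and the 15 bases from it onward, 5′ to 3′ on the transcribed strand, with the pyrimidine tract in capitals where the search found one.
Rpl4 (chr9:64173372-64173401, plus strand): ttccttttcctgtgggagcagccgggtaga
Rps12 (chr10:23787195-23787224, minus strand): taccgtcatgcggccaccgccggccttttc
Rpl41 (chr10:128549154-128549183, minus strand): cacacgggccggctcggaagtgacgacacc
Rpl13a (chr7:45128731-45128760, minus strand): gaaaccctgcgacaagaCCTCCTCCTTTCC
Rpl23 (chr11:97782425-97782454, minus strand): acgaggtccggtcacgtggctgagtgggcg
Rpl26 (chr11:68901551-68901580, plus strand): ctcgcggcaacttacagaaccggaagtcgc
Of these 6 genes, Rpl13a had a tract at its annotated start, beginning at base 3 and running past the window, while the windows of Rpl4 and Rps12 held pyrimidine runs that lay outside the 5-base limit. The search describes letters around an annotated position and does not show where transcription begins in these cells.

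The members were expressed well above the typical gene. All 75 passed the filter on low counts, all 75 were above the median tested gene in WT ESCs, and 20 were among the 100 genes with the highest CPM. Their mean level in WT libraries ranged from 28.3 CPM (Rpl34) over a median of 671 CPM to 3850 CPM (Rpl4), and the 10 highest members took 32.0% of the counts of all members. Even the lowest count of a member in any library, 851 for Rpl34, left little counting error.

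Per kilobase of median coding transcript length, the order in WT ESCs began with Rpl4, part of the wall of the peptide exit tunnel, at 2503 ± 66.1 CPM per kilobase (SD, n = 3). It was followed by Rps12, a protein of the small subunit head, at 2186 ± 188, and by Rpl41, a very short basic peptide at the subunit interface, at 2168 ± 91.4 CPM per kilobase. Rpl13a and Rps27 came next, at 2004 ± 146 and 1972 ± 280 CPM per kilobase. Rpl4 stood above Rps12 by more than the larger of their SDs, whereas Rps12, Rpl41, Rpl13a and Rps27 could not be ordered within theirs, except that Rpl41 exceeded Rpl13a by slightly more than the larger SD.

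At the other end were Rpl34 at 45.3 ± 1.86, Rpl22 at 85.1 ± 3.98, Rps15a at 94.6 ± 6.32, Rpl29 at 105 ± 5.09 and Rpl39 at 146 ± 13.95 CPM per kilobase. These 5 members were separated from each other by more than their SDs and the span from the lowest to the highest member was 55.3-fold. Over the whole order, 59 of 74 neighboring pairs lay closer together than the larger of their SDs, so most of the order between the extremes is not resolved. Small subunit genes had a median of 1112 CPM per kilobase and large subunit genes a median of 860 CPM per kilobase, with ranges that overlapped almost completely (94.6 to 2186 and 45.3 to 2503).

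**Figure D1:**
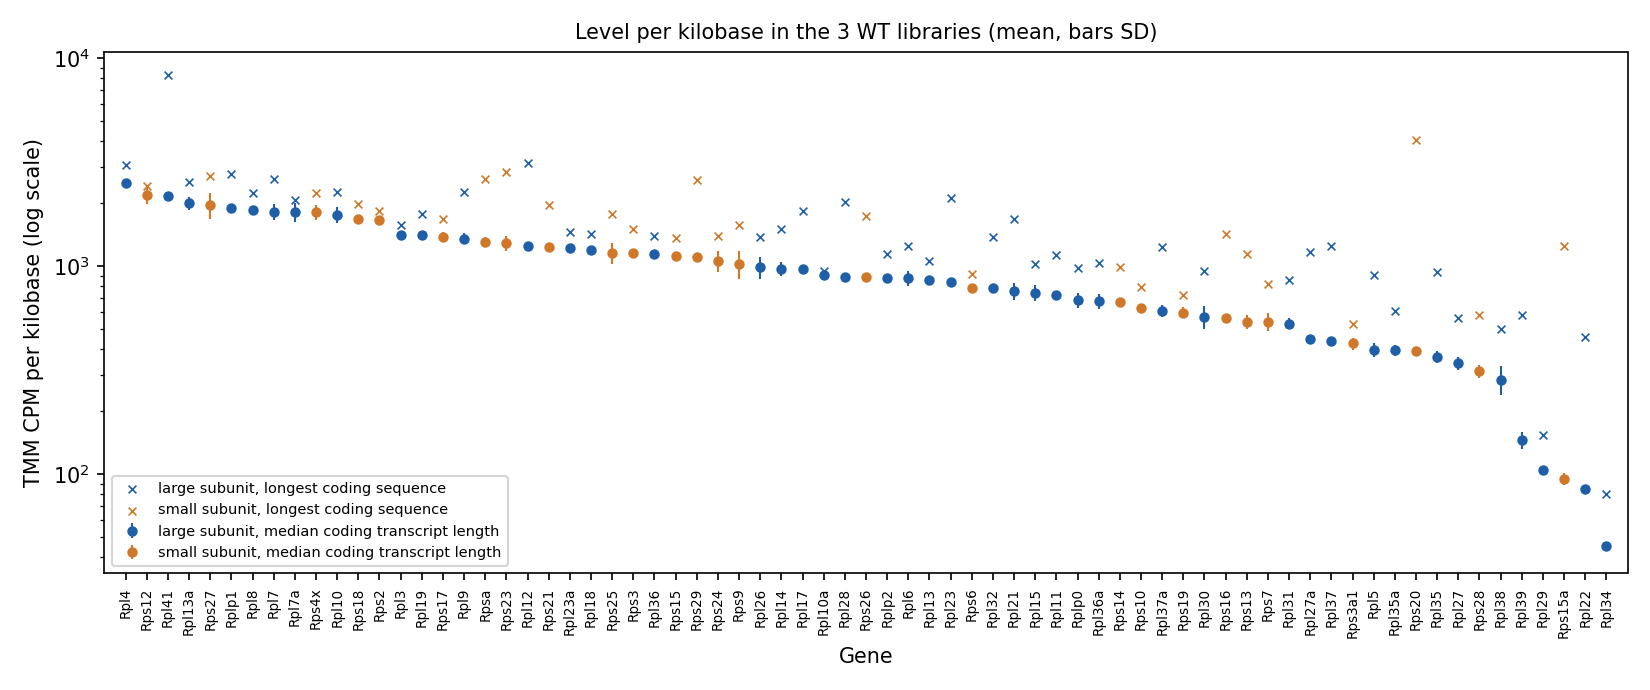
71 of the 75 members in order of their level in the 3 WT libraries, as CPM per kilobase on a log axis. Dots are means over median coding transcript length with SD, crosses are means over the longest coding sequence, blue is large subunit and orange is small subunit. The dots fall from 2503 for Rpl4 to 45.3 for Rpl34, and the crosses of Rpl41, Rps20 and Rps15a lie far above their dots.

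The order depended on the length used. The annotated transcripts of Rps15a have a median length of 5130 bases, and per kilobase of coding sequence this gene moved from the rank of 73 to that of 46, at 1245 CPM per kilobase. By the same measure, chosen after the data were seen, Rpl41 was highest at 8272 CPM per kilobase, followed by Rps20, Rpl12, Rpl4 and Rps23. Rpl34 was the lowest member by both measures, and Rpl29 and Rpl22 were among the 5 lowest by both.

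Several members share sequence with rows of pseudogenes and other genes, and how reads were divided between such rows was not tested. Of the 50-base stretches in the members' transcripts, a median of 41.8% also occurred in transcripts of another gene, with 2.96% for Rps3, 5.19% for Rpl22 and 86.7% for Rps18, and 27 members shared more than 50%. The table held 195 rows named as pseudogenes of ribosomal protein genes by a symbol with -ps, 133 of them with at least 1 count, and together they took 0.0964 ± 0.00488% of counts in WT and 0.0912 ± 0.00488% in S138A libraries (SD, n = 3). Rows that share sequence under other names, such as Gm8730, Gm13841 and Rps3a3, are not in this share, so it is not the total of such reads.

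For 4 members, the rows that shared at least 5% of their 50-base stretches held more than 0.5 times as many WT counts as the gene itself. Rpl34 had 2911 counts over the 3 WT libraries, against 17165 in 7 sharing rows, nearly all of them in Rpl34-ps1 (16792). Rpl29 had 7608 counts against 24743 in 29 rows, led by Gm13841. In both cases the sharing rows held more counts than the gene itself. Rps3a1 had 42482 counts against 126077 in 4 rows, among them Rps3a3 and Rps3a2. Rplp0 had 95278 counts against 73566 in 3 rows, nearly all in Gm8730.

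The low levels of Rpl34 and Rpl29 therefore concern the reads assigned to those rows. With the sharing rows added, Rpl34 reached 314 and Rpl29 444 CPM per kilobase in WT ESCs. For Rpl34 the sum also had the opposite sign between genotypes. Rpl34 alone was at 28.97, 26.9 and 28.9 CPM in WT and at 34.6, 33.9 and 28.4 CPM in S138A libraries, a log2 difference of group means of 0.19. The sum with its sharing rows was at 211, 198 and 180 CPM in WT and at 179, 193 and 162 CPM in S138A libraries, a log2 difference of -0.14. For Rplp0 the difference went from 0.00 alone to 0.14 in the sum, and for Rps3a1 it was -0.20 alone and -0.22 in the sum. The genotypes overlapped in the sums of Rpl34, Rpl29 and Rplp0, whereas for Rps3a1 the highest S138A library (1492 CPM) lay below the lowest WT library (1495 CPM).

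**Figure D2:**
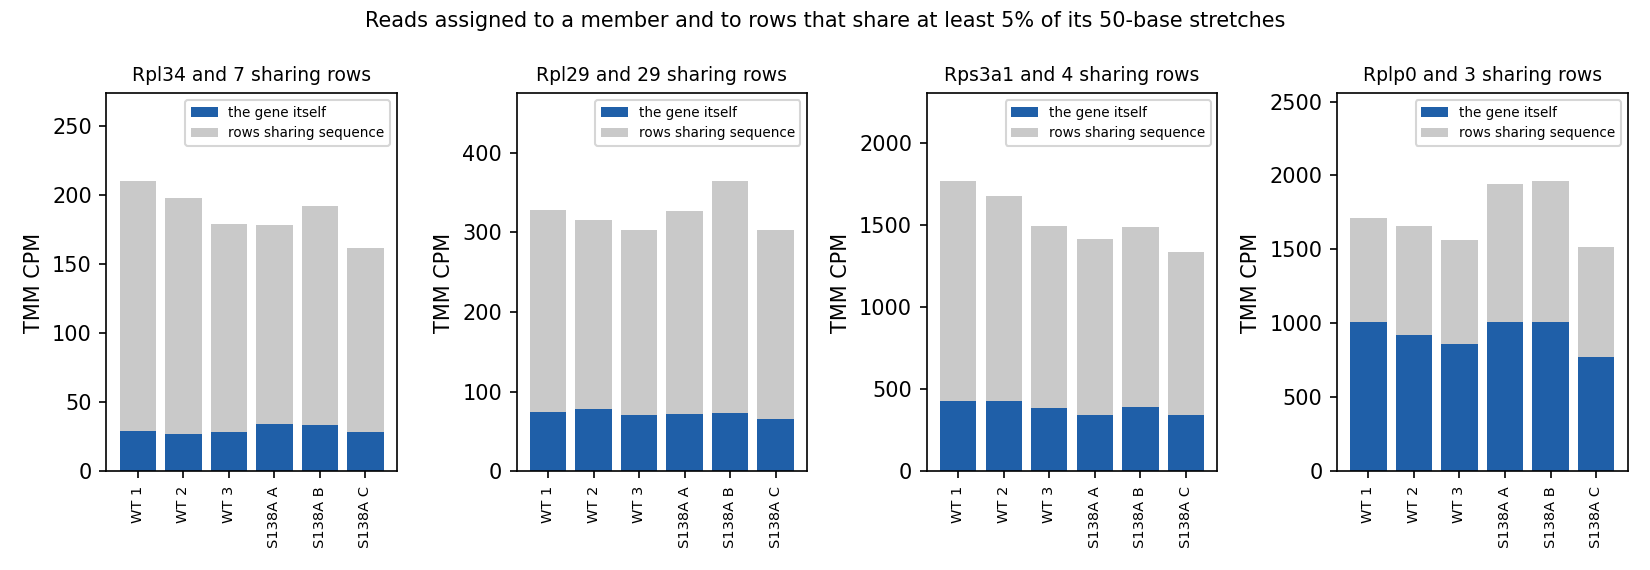
TMM CPM in each of the 6 libraries for Rpl34, Rpl29, Rps3a1 and Rplp0 (blue) and for the rows that share at least 5% of their 50-base stretches (gray, stacked). In WT libraries the gene itself holds 14.4% of the sum for Rpl34, 23.5% for Rpl29, 25.2% for Rps3a1 and 56.5% for Rplp0.

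The comparison of S138A with WT ESCs asked whether ribosomal protein mRNAs differ with the genotype. Differences were small and went both ways. In such bulk libraries, less RNA per cell and fewer cells of a type cannot be told apart. A positive log2 fold change was found in 31 of the 75 members and a negative one in the rest, among them 0.30 for Rplp1 and -0.33 for Rpl26. With edgeR's quasi-likelihood test on all 6 libraries, 0 of 75 members passed an adjusted p of 0.05, against 0% of the 16023 genes tested. At an unadjusted p under 0.05 there were 9 members (5 higher and 4 lower in S138A), or 12%, beside 2270 of all genes tested, or 14.2%. DESeq2 called 1 member, Rpl23, as lower in S138A (adjusted p = 0.0271), beside 2.35% of genes called lower and 2.62% called higher.

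Fold changes of the members were narrower than those of the table as a whole. In 70 of 75 members the fold change was within 1.2-fold in either direction, as in 58.1% of all genes tested, and Rplp1, Rpl23, Rpl26 and Rpl39 were among the 5 exceptions. Members also varied less over the 6 libraries, with a median range of 0.32 on the log2 scale, beside 0.52 for the 5994 other genes at or above the lowest member's WT level. Neither comparison set was matched to the members in level, which had a median of 671 CPM in WT. The part of expression level in both differences was not tested.

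When the libraries were paired by the final digit of their column names (the replicate block), 7 members passed the adjusted p of 0.05. The sample labels do not give this pairing. Rplp1, Rplp2 and Rps29 were higher in S138A, which is 4% of members beside 10.7% of all genes, and Rpl26, Rpl23, Rpl21 and Rpl4 were lower, which is 5.33% of members beside 9.13% of all genes. The shares of members called were thus below those of the table in both directions. Of these 7, 6 encode large subunit proteins, as do 45 of all 75 members.

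The P stalk genes encode the flexible arm of the large subunit that recruits translation factors. Rplp1, an acidic stalk protein, was at 903, 932 and 998 CPM in WT and at 1091, 1240 and 1152 CPM in S138A libraries. All 3 S138A libraries lay above all 3 WT libraries. The log2 fold change was 0.30 ± 0.10 (SE), with an edgeR adjusted p of 0.260 without the replicate block and of 0.0238 with it.

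Rplp2, the partner of Rplp1 in the stalk dimers, was at 382, 414 and 381 CPM in WT and at 470, 489 and 448 CPM in S138A libraries. Again the genotypes did not overlap. Its log2 fold change was 0.26 ± 0.09 (SE), with an adjusted p of 0.287 without and 0.0277 with the block.

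The genes of the stalk base overlapped between genotypes. Rplp0, which anchors the dimers, was at 1009, 920 and 862 CPM in WT and at 1010, 1008 and 776 CPM in S138A libraries. Rpl12, which binds beside it on the ribosomal RNA, was at 1573, 1515 and 1576 CPM in WT and at 1497, 1614 and 1692 CPM in S138A libraries. Their log2 fold changes were 0.00 ± 0.13 and 0.04 ± 0.09 (SE). For Rplp0 this is the value of its own row, and its sharing rows, mainly Gm8730, differed by 0.29 and the sum by 0.14 between the group means. Whether the stalk genes differ from each other in their fold change was not tested.

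Rps29, a zinc-binding protein of the small subunit head, was at 439, 440 and 421 CPM in WT and at 518, 558 and 468 CPM in S138A libraries. Every S138A library was higher than every WT library. The log2 fold change was 0.25 ± 0.10 (SE), and the adjusted p was 0.330 without and 0.0408 with the block. The 12 other genes of the small subunit head showed no call in either fit, and their list of 13 had 7 positive fold changes and a median of 0.04.

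Rpl36 and Rpl13, both of the large subunit, completed the 5 members of lowest p among those higher in S138A. Rpl36 was at 439, 424 and 453 CPM in WT and at 485, 559 and 514 CPM in S138A libraries, with a log2 fold change of 0.24 ± 0.09 (SE). Rpl13 was at 694, 658 and 660 CPM in WT and at 773, 809 and 741 CPM in S138A libraries, with 0.21 ± 0.09 (SE). Neither overlapped between genotypes, and their adjusted p-values with the block were 0.0553 and 0.0584.

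Among the members lower in S138A, Rpl23, which sits at the subunit interface, had the lowest p of all members. It was at 914, 841 and 910 CPM in WT and at 735, 753 and 717 CPM in S138A libraries, with no overlap. The log2 fold change was -0.27 ± 0.09 (SE), with an adjusted p of 0.258 without and 0.0292 with the block.

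Rpl26, at the rim of the peptide exit tunnel and known to bind p53 mRNA, was at 568, 547 and 684 CPM in WT and at 447, 482 and 498 CPM in S138A libraries. The groups did not overlap, and WT 3 lay well above the other WT libraries. The log2 fold change was -0.33 ± 0.12 (SE), with an adjusted p of 0.287 without and 0.0231 with the block.

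Rpl4 was at 3962, 3826 and 3763 CPM in WT and at 3281, 3306 and 3412 CPM in S138A libraries. This most abundant member was lower in all 3 S138A libraries. The fitted log2 fold change was -0.21 ± 0.09 (SE), with an adjusted p of 0.337 without and 0.04998 with the block, just inside the threshold.

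Rpl21 was at 878, 825 and 724 CPM in WT and at 706, 754 and 598 CPM in S138A libraries, so that S138A B lay above WT 3. Within each pair of the block the S138A library was the lower one. The log2 fold change was -0.24 ± 0.13 (SE), with an adjusted p of 0.453 without and 0.0423 with the block.

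**Figure D3:**
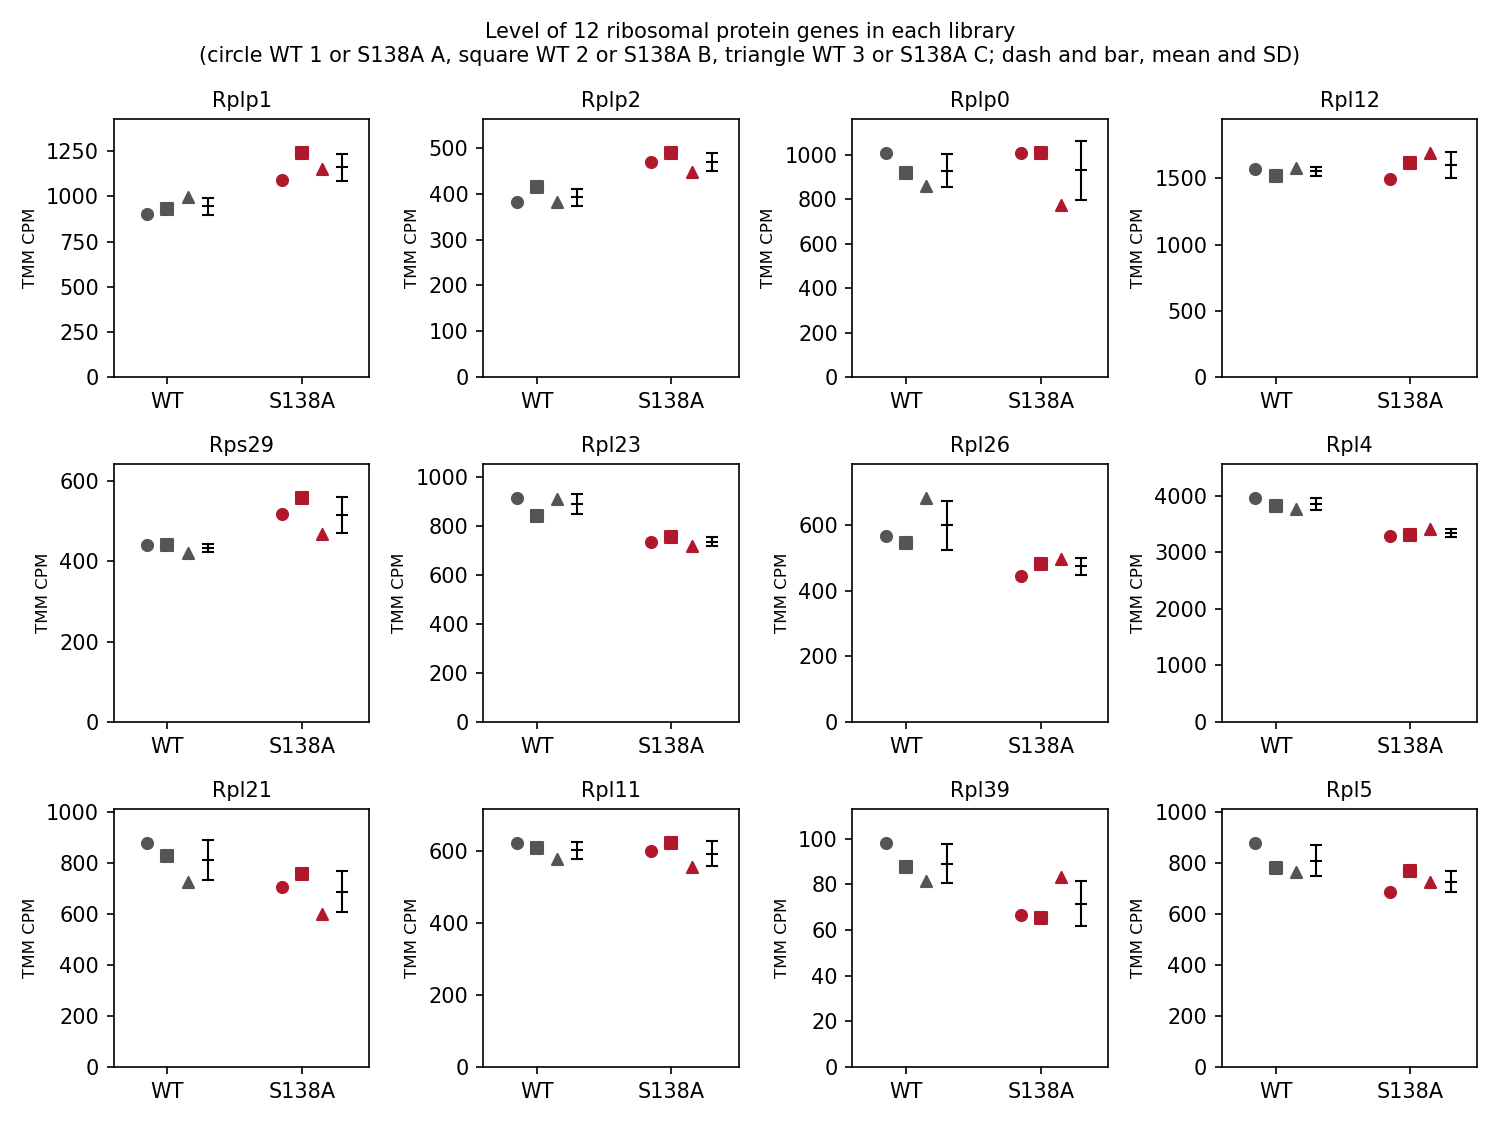
TMM CPM of 12 members in the 3 WT (gray) and 3 S138A (red) libraries, with each axis from 0 and the mean and SD beside the points. Libraries with the same final digit share a symbol. Rplp1, Rplp2 and Rps29 are higher and Rpl23, Rpl26 and Rpl4 lower in every S138A library, whereas Rplp0, Rpl12, Rpl21, Rpl11, Rpl39 and Rpl5 overlap.

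Rpl39 and Rpl23a, with Rpl26, line the exit of the tunnel through which the nascent chain leaves. Rpl39 was at 98.2, 87.8 and 81.3 CPM in WT and at 66.5, 65.1 and 83.0 CPM in S138A libraries. S138A C lay above WT 3 and the other S138A libraries lay below all of WT. On the log2 scale its fold change was -0.32 ± 0.13 (SE), and the adjusted p was 0.352 without and 0.0876 with the block.

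Rpl23a was at 681, 669 and 707 CPM in WT and at 553, 622 and 604 CPM in S138A libraries, with no overlap. Its log2 fold change was -0.21 ± 0.09 (SE), with an adjusted p of 0.361 without and 0.0613 with the block. All 8 genes of the tunnel exit list had a negative fold change, with a median of -0.19, and 0 passed the test without the block and 1 (Rpl26) with it. Of all 45 large subunit genes, 17 had a positive fold change, and their median was -0.06. The list was chosen with earlier results of these data known, so its common sign is not a test.

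The 5S RNP genes Rpl5 and Rpl11 encode the pair that carries 5S ribosomal RNA into the large subunit and, when unassembled, binds MDM2. Rpl5 was at 881, 783 and 768 CPM in WT and at 687, 769 and 727 CPM in S138A libraries, where S138A B lay between WT libraries. Its log2 fold change was -0.16 ± 0.10 (SE). Rpl11 was at 624, 608 and 578 CPM in WT and at 602, 624 and 556 CPM in S138A libraries, with -0.02 ± 0.09 (SE). Neither passed the test with or without the block.

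Over the 6 libraries, Rpl26 and Rpl39 were among the members that varied most, with ranges of 0.62 and 0.59 on the log2 scale. Rps20 and Rps3 were among the steadiest, with ranges of 0.13 and 0.14.

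Groups that did not overlap were found for 11 members higher in S138A (14.7%, beside 11.3% of genes tested) and for 8 members lower in S138A (10.7%, beside 10.9%). The first included Rplp1, Rplp2, Rpl10a, Rpl13, Rpl28, Rpl36, Rps15, Rps16, Rps21 and Rps29. The second were Rpl4, Rpl6, Rpl17, Rpl19, Rpl23, Rpl23a, Rpl26 and Rps3. Of the 8 lower members, Rps3 was the one from the small subunit. Large subunit genes made up 7 of the 11 higher and 7 of the 8 lower members, and 45 of all 75.

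Large and small subunit genes were then compared. The median log2 fold change was -0.06 for the 45 large subunit genes, of which 17 were positive, and -0.01 for the 30 small subunit genes, of which 14 were positive. Library by library, the median deviation of large subunit genes from their mean over the 6 libraries, minus that of small subunit genes, was 0.03, -0.01 and 0.03 in WT and -0.05, -0.01 and -0.04 in S138A libraries on the log2 scale. S138A B lay slightly above WT 2, so the genotypes overlapped. The difference between the medians of fold change, -0.04, was about 2 times the SD of this per-library difference within a genotype, 0.02, and was -0.02 without S138A B or without S138A C. At an unadjusted p under 0.05 there were 8 of 45 large subunit genes (17.8%) and 1 of 30 small subunit genes (3.33%), beside 14.2% of all genes tested. No test of the difference between subunits was made, because the genes share their libraries and were chosen as a family.

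**Figure D4:**
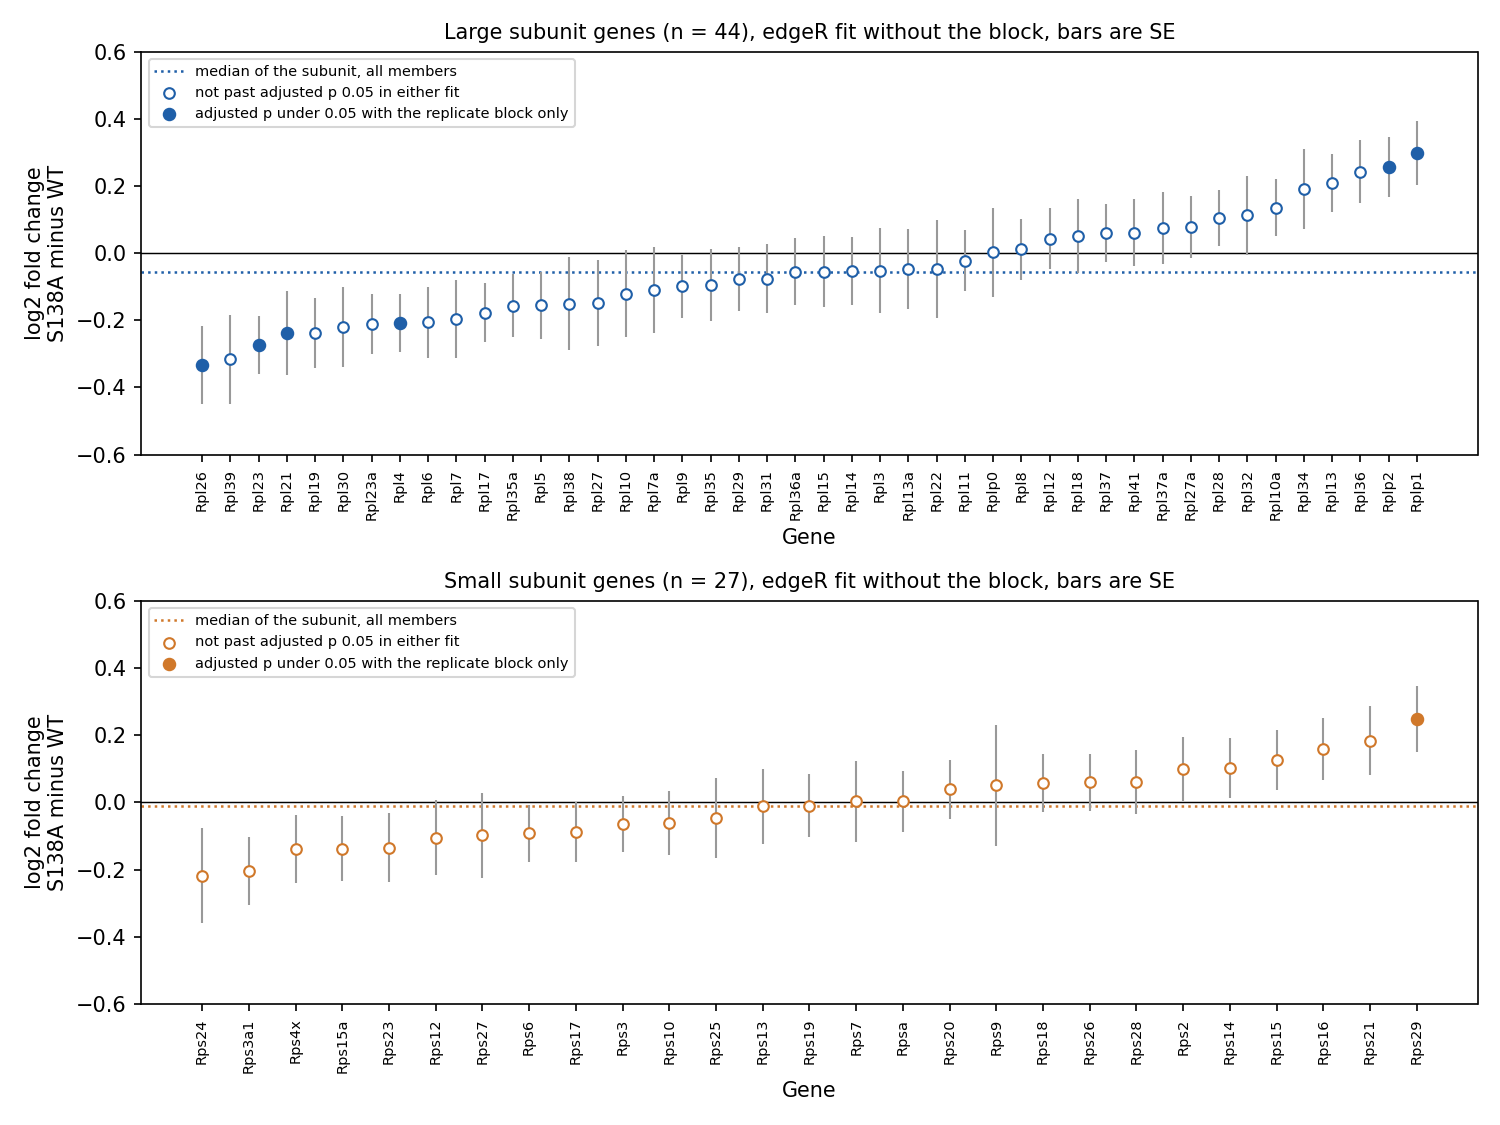
Log2 fold change, S138A minus WT, of 44 large (top) and 27 small (bottom) subunit genes, in order of size, with SE bars from the edgeR fit without the replicate block. Filled dots mark the 7 members with an adjusted p under 0.05 when the block is added, and dotted lines mark the medians over all 45 and all 30 genes, -0.06 and -0.01.

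Summed over the members, their share of all counts was 6.11, 5.98 and 6.25% in WT and 6.02, 6.39 and 6.44% in S138A libraries, which overlap. The large subunit genes took 3.65, 3.55 and 3.78% in WT and 3.54, 3.78 and 3.84% in S138A libraries, also with overlap. The small subunit genes took 2.46, 2.43 and 2.47% in WT and 2.48, 2.61 and 2.60% in S138A libraries. For these the lowest S138A library was just above the highest WT library. The totals include mitochondrially encoded counts, which took 6.44, 5.88 and 6.35% in WT and 5.70, 5.41 and 5.69% in S138A libraries. Taken over the counts that are not mitochondrially encoded, the small subunit share of S138A A fell below that of WT 3, so the genotypes overlapped.

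The ratio of large to small subunit counts was 1.49 ± 0.035 in WT and 1.45 ± 0.024 in S138A ESCs (SD, n = 3). Single libraries gave 1.49, 1.46 and 1.53 in WT and 1.43, 1.45 and 1.47 in S138A, so the genotypes overlapped. Per kilobase of transcript the ratio was 1.33 ± 0.042 in WT and 1.31 ± 0.026 in S138A.

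The sign of the members' median depended on the scaling. Factors from the trimmed mean of M-values (TMM) were 0.938, 0.952 and 1.03 for WT and 1.00, 1.00 and 1.09 for S138A libraries. With TMM, 41.3% of members and 52.4% of all genes tested had a positive fold change, and with library totals only 61.3% of members and 63.3% of all genes did. The median of members was -0.05 with TMM and 0.04 with totals, beside 0.02 and 0.10 for all genes. With TMM it was smaller in size than 0.06, the SD of the members' per-library median deviation within a genotype. Relative to the median of all genes, the median of members was -0.07 by both scalings. A change of scaling moves all genes by nearly the same amount, so this match was fixed in advance.

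The 4 libraries without WT 3 and S138A C gave more calls. Among them 8 members (10.7%) were higher and 16 (21.3%) lower in S138A at an adjusted p of 0.05, beside 15.3% and 14.3% of 16055 genes. Of the 16 lower members, 13 were from the large subunit, as were 5 of the 8 higher members and 45 of all 75. The lowest p belonged to Rpl39, with -0.50 on the log2 scale (adjusted p = 0.00259), and the highest fold change to Rplp1, at 0.34 (adjusted p = 0.00934). S138A C against WT 3, a pair without replication, had the same sign as the 4 libraries for 19 of these 24 members and for 54 of all 75, beside 70.0% of all genes tested. For Rpl39 that pair differed by 0.03, for Rplp1 by 0.21, for Rplp2 by 0.23, for Rpl23 by -0.34 and for Rpl26 by -0.46 on the log2 scale. A term for WT 3 and S138A C in the fit of all 6 libraries called 5 members higher (6.67%, beside 14.6% of genes) and 9 lower (12%, beside 13%).

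Fold changes of the members moved with the GC content of their transcripts. Over the 75 members, Pearson's r between GC content and log2 fold change was 0.357 and Spearman's rho was 0.375, and over the 14101 genes tested with a GC value r was 0.356 and rho 0.423. These are correlations across genes that share 6 libraries. Of the 37 members above the members' median GC content of 51.9%, 21 had a positive fold change, and of the 38 at or below it, 10 did. Median GC content was 51.9% in large and 51.5% in small subunit genes.

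With the trend over GC content in all genes subtracted, an alternative chosen after the data were seen, the values of some named members shrank and those of others did not. Rpl36, at 60.8% GC, went from 0.24 to -0.09, Rpl13 from 0.21 to 0.01 and Rplp1 from 0.30 to 0.09. Rps29 (0.18), Rplp2 (0.14), Rpl23 (-0.21) and Rpl4 (-0.16) kept most or part of theirs, and Rpl26, at 56.5% GC, went from -0.33 to -0.51. The median of members was then -0.07, with 22 of 75 positive, beside -0.01 for all genes with a value. The part of GC content in the difference between genotypes was not tested.

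**Figure D5:**
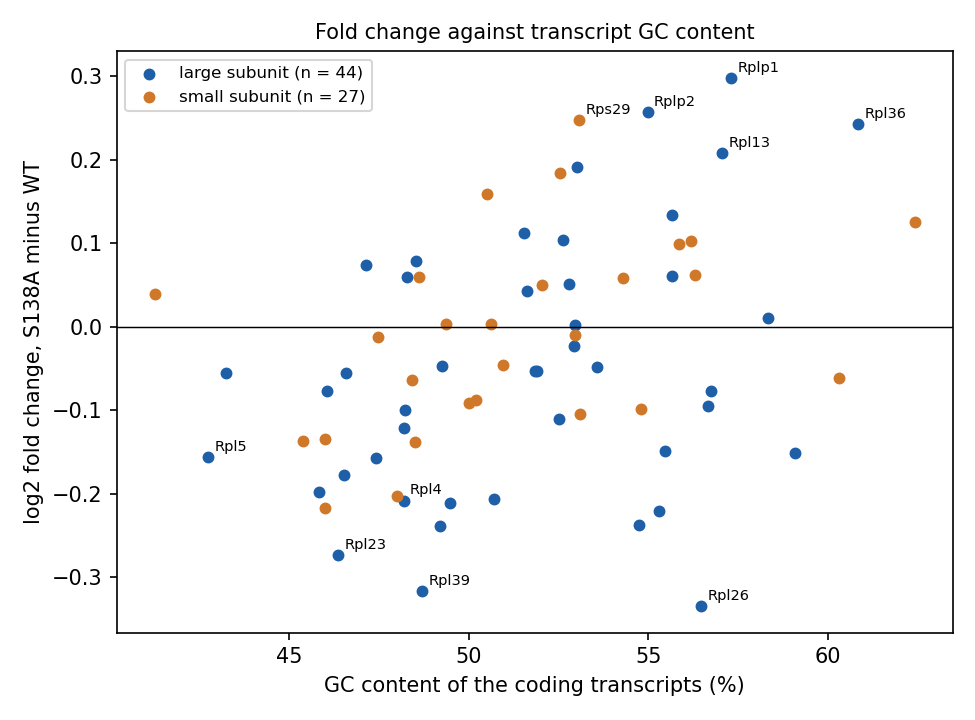
Log2 fold change, S138A minus WT, of 71 members against the GC content of their coding transcripts in percent, with large subunit genes in blue and small subunit genes in orange. Rplp1, Rpl36 and Rpl13, of high GC content, lie above 0 and Rpl5, Rpl23 and Rpl4 lie below it, and several members of high GC content, such as Rpl26, Rpl30, Rpl27 and Rpl38, also lie below 0.

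Ribosomal protein genes left out by the naming rule include those fused to ubiquitin or to a ubiquitin-like protein. Rps27a, which encodes ubiquitin joined to a small subunit protein, was at 1417, 1278 and 1342 CPM in WT and at 1066, 1097 and 939 CPM in S138A libraries, with no overlap. Its log2 fold change of -0.38 ± 0.10 (SE) had an adjusted p of 0.212 without and 0.0163 with the block. Fau, which joins a ubiquitin-like domain to Rps30, was at 383 ± 21.7 CPM in WT and 430 ± 36.4 CPM in S138A (SD, n = 3).

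Among paralogues, Rpl22l1, the counterpart of Rpl22, was at 151, 142 and 143 CPM in WT and at 116, 89.4 and 123 CPM in S138A libraries, with an adjusted p of 0.264 without and 0.0232 with the block. Rpl22 itself was at 179, 165 and 179 CPM in WT and at 149, 150 and 206 CPM in S138A libraries, which overlap. Rpl36al differed by -0.34 on the log2 scale (adjusted p = 0.291 without and 0.0321 with the block), while Rpl36a, its close relative, was not called in either fit. With the 12 tested genes of this list, 0 were called without the block, and 0 higher and 3 lower with it.

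Other genes of ribosome production were counted by list. Counts with the block are given beside 10.7% of all genes called higher and 9.13% called lower. The lists here and below were chosen with earlier results of these data known, so their shares are not a test. Of 38 ribosome biogenesis factors tested, 0 passed without the block and 0 higher and 12 lower (31.6%) with it, with a median log2 fold change of -0.18, and the lowest p was that of Nop10, of the H/ACA ribonucleoproteins, at -0.35 (adjusted p = 0.229 without and 0.0214 with the block). Pes1 (-0.33), without overlap between genotypes, and Nop56 (-0.39), which overlapped, were next. Of 16 genes of the RNA polymerase I machinery, 0 passed without the block and 0 higher and 4 lower (25%) with it, with a median of -0.15, whereas the 4 libraries without WT 3 and S138A C gave 2 higher and 3 lower. Their lowest p-values were those of Polr2k (-0.72) and Taf1d (-0.34), without overlap, and Polr1d (-0.29), which overlapped. Polr2k was at 21.5, 22.3 and 18.7 CPM in WT and at 7.48, 17.2 and 13.3 CPM in S138A libraries.

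Of 15 translation factors and related genes with TOP mRNAs, 0 passed without the block and 1 higher (6.67%) and 2 lower (13.3%) with it, and their median was -0.10. Npm1, a nucleolar chaperone, was at 3239, 2928 and 2636 CPM in WT and at 2379, 2329 and 1709 CPM in S138A libraries, without overlap. Eif3e (-0.32), which overlapped between genotypes, and Hnrnpa1 (-0.18), which did not, followed by p. Of 16 genes listed under mTORC1 and TOP control, 0 passed without the block and 0 higher and 5 lower (31.2%) with it. The median log2 fold change of this list was -0.05 without the block. Those called lower included the transcription factor gene Mycn, at -0.52 (adjusted p = 0.187 without and 0.00687 with the block), Rps6kb1, which encodes the kinase of Rps6, at -0.42, and Larp4 at -0.36. Of 3 snoRNA host genes tested, Snhg12 (-0.35) was called with the block, whereas Snhg3 (-0.08) and Gas5 (-0.16) were not.

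Genes of the mitochondrial ribosome, which is built from a separate set of proteins, offered the nearest comparison. Of 76 tested, 16 had a positive log2 fold change, beside 31 of the 75 cytosolic genes, and their median was -0.17, beside -0.05. With the block 0 were called higher and 19 lower (25%), beside 9.13% of all genes called lower, and the 3 of lowest p were Mrpl32 (-0.61), Mrpl24 (-0.43) and Mrpl10 (-0.43). Of 53 pseudogene rows tested, 0 were called higher and 4 lower (7.55%) with the block, among them Rps6-ps4 (-0.47), Rpl19-ps11 (-0.49) and Rps27a-ps2 (-0.97).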

How the data were processed

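Per the submitters' processing notes, the tools were CASAVA (1.8.4), TopHat2 (2.0.11) and featureCounts, and the genome builds mm9 and NCBIM37. The authors deposited whole-number counts for each gene. The featureCounts version and its settings for strand and multi-mapping reads are not given in the sources used here. PolyA libraries were made from 500 ng RNA with a stranded kit. All 6 columns were used, and 0 rows named no gene. Columns of S138A libraries match no single sample label, so they stand for their genotype and are lettered here. Symbols matched 32897 rows (87.4%). The members and gene lists were chosen with earlier results of these data known.

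Counts were tested with edgeR 4.0.16 under R 4.3.3 (TMM, filterByExpr at 10 counts and 15 in total, quasi-likelihood test, Benjamini-Hochberg adjustment over all 16023 genes), and with DESeq2 version 1.42.0 and limma version 3.58.1 as alternatives. Each SE is the log2 fold change over the root of its F statistic. The test was checked on simulated data. That check was not matched to the spread between these libraries, so it does not measure which differences the test could find in them. Same-digit libraries correlated at 0.530, 0.493 and 0.753 in their deviations from the genotype means. The block follows the final digit of the column names. WT 1 with S138A B (0.515) and WT 2 with S138A A (0.526) correlated as strongly. These values thus do not single out the pairing by digit for those libraries. Levels are TMM CPM. Transcript lengths, GC content and shared 50-base stretches came from GENCODE M21 (GRCm38), a later build than that of the counts, and start sites from RefSeq GRCm38.p6. The GC trend is a lowess fit (statsmodels version 0.14.6). Members were named by level, by p-value in either fit, by range over libraries and by complex, and other genes by p-value within lists. Intervals for counting error were not needed at 33227593 to 37169770 counts per library. Results for 5 genes are not reported here, and the plots leave them out, although they enter every count and median.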

Additional observations from a re-analysis of the deposited data

How the results depend on the processing

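The count of 0 members called was the same under other scaling factors, filters, limma-voom, an adjusted p of 0.1 and with any single library left out. DESeq2 called 1, the replicate block, which pairs libraries by final digit, 7, the term for WT 3 and S138A C 14, and the 4 libraries alone 24. The median log2 fold change of members (-0.048) was -0.021 with upper-quartile factors and 0.036 with library totals only, and between -0.075 (without S138A B) and -0.020 (without WT 1) when a library was left out. Without S138A C it was -0.021. The median for large minus small subunit genes (-0.045) ran from -0.070 without S138A A to -0.022 without S138A C when a library was left out, and lay within that range under every other alternative run.

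The share of counts in members (6.12% in WT and 6.28% in S138A) became 6.52% and 6.66% without mitochondrially encoded counts, and 6.63% and 6.77% with 212 left-out ribosomal protein rows added. The ratio of large to small subunit counts became 1.33 and 1.31 per kilobase, and 1.53 and 1.51 without the 3 highest genes of each subunit. A tract was found at the start site of 60.7% of members, and of 34.4% of all genes in the table, when the C could lie within 10 bases. Of the 5 highest members per kilobase, 3 kept their place with the longest transcript and 2 with the coding sequence, and of the 5 lowest, 5 and 3 did.

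For 15 named members, 254 of 270 alternatives kept the direction and 29 passed the threshold. The 16 others concern members near 0, except Rpl36, which was -0.095 with the GC trend removed. Rplp0 (0.0016) was -0.0022 with RLE factors and with DESeq2, -0.011 without the low-count filter, -0.0059 with limma-voom, -0.0060 with the replicate block, -0.0069 with the term and -0.059 with the GC trend removed, and with single libraries left out from -0.066 to 0.11. Rpl11 (-0.022) was 0.0047 with upper-quartile factors and 0.061 with library totals only, and from -0.066 to 0.020 with libraries left out. Rpl12 (0.043) was from -0.0022 to 0.087 with libraries left out. Adding the replicate block changed the call of 7 members and of no other member. Without the block, SEs of the members' log2 fold changes ran from 0.08 to 0.18 with 3 libraries a genotype. This limits the size of difference that this fit could call. The SEs also depended on the fit, and that of Rpl21, for example, was 0.13 without and 0.07 with the block.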
